A study of Mus musculus with 2 samples.

Results

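Some cell barcodes of these mouse livers carried RNA of Kupffer cells and RNA of endothelial cells together. These mixed barcodes numbered 730 of 25418 kept barcodes, with 426 of 13846 in the Ter119 library and 304 of 11572 in the saline library. A barcode is the sequence shared by all transcripts caught in 1 droplet, and a unique molecular identifier (UMI) marks 1 caught transcript. Barcodes needed 1000 or more UMIs, 500 or more genes and a mitochondrial share of 15% or less to be kept. The mixed ones were chosen by 2 measured shares of their UMIs. The endothelial genes Kdr, Ptprb, Clec4g, Gpr182, Ehd3, Bmp2, Gpihbp1, Igfbp7 and F8 together had to make up at least 0.2% of its UMIs, with at least 3 of them detected. The Kupffer genes Cd5l, Marco, Slc40a1, Clec4f and Vsig4 together had to make up at least 1%. UMIs of the 4 hemoglobin genes Hba-a1, Hba-a2, Hbb-bs and Hbb-bt were left out of the total, which is called N here. Because the 14 panel genes chose the barcodes, their levels are given as a description only, and a name as a cell type is not given to the mixed barcodes.

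The Ter119 mouse was a C57BL/6J animal that received 35 µg of Ter119, an antibody to mouse red blood cells, under the skin and then 10 µg daily for 10 injections. The other mouse, also C57BL/6J, received saline. Both were 7 to 10 weeks old, and the livers were collected at 24 from the final injection, for which the labels name no unit. Livers were digested, macrophages were enriched on magnetic beads with antibodies to F4/80 and CD11b, and the cells, marked with hashtag antibodies, were pooled in equal number for 10x Genomics 3' sequencing. Each group is 1 mouse and 1 library, so an effect of Ter119 cannot be told apart from the mouse or its library, no difference below has a replicate check, and no p-value is given. Intervals are exact 95% intervals that cover counting error only.

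The Ter119 library held 61892074 UMIs in 25760 barcodes and the saline library 97181787 UMIs in 18354 barcodes. Kept barcodes had a median of 2803 UMIs in Ter119 and 6239 in saline. The labels give liver macrophages, and 7646 kept Ter119 barcodes and 9620 kept saline barcodes met the Kupffer condition. The endothelial condition was met by 1940 Ter119 barcodes and 1025 saline barcodes. Both libraries share 133 barcode sequences, of which 0 were mixed in Ter119 and 2 in saline.

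Kupffer cells are macrophages that live inside the liver sinusoids, where they take up aged red blood cells and particles from the blood. They are anchored to the liver sinusoidal endothelial cells, which line the same vessels, have pores, and take up macromolecules through scavenger receptors. Clec4f, a lectin, and Cd5l, a secreted scavenger protein, mark mouse Kupffer cells, while Kdr, a receptor for vascular endothelial growth factor, Ptprb, a phosphatase of endothelial junctions, and Clec4g, a lectin of sinusoidal endothelium, mark the endothelial cells. A Kupffer cell subset with Mrc1, Esam and endothelial genes has been described in mouse under the name KC2. A droplet can also take up more than 1 cell, or free RNA from broken cells, and then shows more than 1 profile.

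To ask whether the mixed profile is more than a sum, each library's mixed barcodes were set beside its own reference barcodes. Kupffer-only barcodes met the Kupffer condition with the endothelial panel under 0.05% of N, and numbered 5991 in Ter119 and 8077 in saline. Endothelial-only barcodes met the endothelial condition with the Kupffer panel under 0.5% of N, and numbered 925 in Ter119 and 594 in saline. Levels are UMI counts scaled to 1000000 of N (CPM) over all UMIs of a pool of barcodes, and are compared only for the same gene.

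All 5 label markers were detected in the mixed barcodes of both libraries. Clec4f was at 1009 CPM in Ter119 mixed barcodes, 1149.7 in Kupffer-only and 177 in endothelial-only barcodes, and in saline at 4109, 5402 and 485 CPM in the same order of pools. Cd5l was at 5207 CPM in Ter119 mixed barcodes, 6055 in Kupffer-only and 838 in endothelial-only barcodes, and in saline at 6068, 7548 and 590.1 CPM. Both genes thus stood somewhat below the Kupffer-only level and far above the endothelial-only level. Kdr was at 609 CPM in Ter119 mixed barcodes, 12.4 in Kupffer-only and 1953 in endothelial-only barcodes, and in saline at 953, 14.3 and 3109.8 CPM. Ptprb and Clec4g lay between the 2 references in both libraries in the same way. At least 1 UMI of Kdr was found in 84.3% of mixed, 4.24% of Kupffer-only and 93.4% of endothelial-only Ter119 barcodes, and in 86.2%, 9.92% and 98.5% of these pools in saline. On GRCm38, Clec4f lies on chromosome 6 at 83644542 to 83656187, Cd5l on chromosome 3 at 87357881 to 87371073 and Kdr on chromosome 5 at 75932827 to 75978458.

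**Figure D1:**
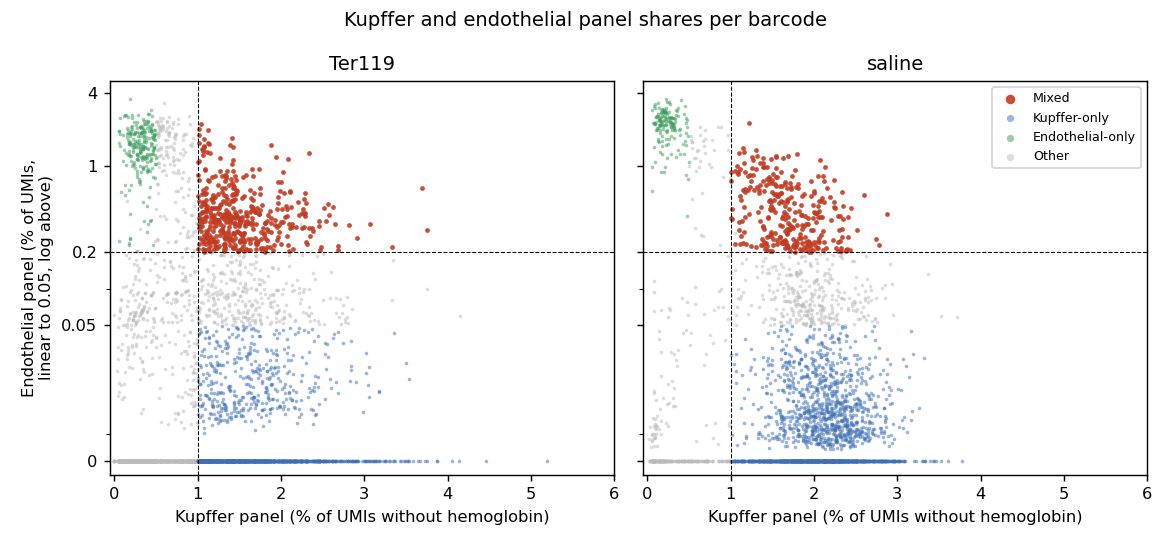
Each point is 1 kept barcode, with its Kupffer panel on the x axis and its endothelial panel on the y axis, both in percent of UMIs without hemoglobin (y axis linear to 0.05, logarithmic above), Ter119 left and saline right. All mixed barcodes and every 4th other barcode are drawn, and dashed lines mark the thresholds of 1% and 0.2%. Mixed barcodes have a median endothelial panel of 0.366% in Ter119 and 0.392% in saline, below the endothelial-only medians of 1.498% and 2.24%.

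The mixed barcodes carried less of the endothelial panel than endothelial-only barcodes did. Its median was 0.366% of N in Ter119 mixed barcodes against 1.498% in endothelial-only barcodes, and 0.392% against 2.24% in saline. The Kupffer panel had a median of 1.42% in Ter119 mixed barcodes against 1.60% in Kupffer-only barcodes, and 1.67% against 2.09% in saline. Along the endothelial panel there was no empty range at the threshold. Of barcodes that met the Kupffer condition, 377 in Ter119 and 373 in saline lay from 0.1 to 0.2%, 339 and 192 from 0.2 to 0.5%, 89 and 96 from 0.5 to 1%, and 28 and 20 at 1% or more. Just inside the threshold, 81 Ter119 members with an endothelial panel of 0.2 to 0.25% had a mean N of 4209, and 76 barcodes just outside, from 0.15 to 0.2% with 3 genes detected, had 3793. In saline, 76 members just inside had a mean N of 5431 and 104 barcodes just outside had 5498. At the Kupffer threshold, 62 Ter119 members from 1 to 1.1% had a mean N of 3177, and 57 barcodes from 0.9 to 1% had 2782. The saline counts there were 12 members just inside, with a mean N of 4104, and 11 barcodes just outside, with 4171. These values chose the members or stand next to the choice, so they are descriptive.

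The Kupffer condition was met more often among endothelial barcodes than among barcodes of most other blood and immune lineages. Among endothelial barcodes it was met less often than among all kept barcodes. Among barcodes that met the endothelial condition, 21.96% (20.1 to 23.9%) also met the Kupffer condition in Ter119 and 29.7% (26.9 to 32.6%) in saline. For comparison, barcodes of 6 other lineages (B, T and NK cells, neutrophils, monocytes, conventional and plasmacytoid dendritic cells) were found with panels of their own, at least 0.2% of N with 3 genes detected. Of barcodes of any such lineage, 10.8% (9.41 to 12.4%) met the Kupffer condition in Ter119 and 15.7% (13.2 to 18.5%) in saline. Neutrophil barcodes did so in 16.2% (13.6 to 19.1%) in Ter119 and 10.5% (7.25 to 14.6%) in saline, and monocyte barcodes in 6.40% (4.92 to 8.17%) and 19.4% (15.3 to 24.0%). The B cell intervals, 7.998 to 24.7% in Ter119 and 11.3 to 27.5% in saline, reach into the endothelial ones. Of all kept barcodes, 7646 of 13846 met the Kupffer condition in Ter119 and 9620 of 11572 in saline. The share meeting both conditions was 0.398 of the product of the 2 single shares in Ter119 and 0.357 in saline. For barcodes of any other lineage that value was 0.196 and 0.189. The overlap was thus below that product in both libraries. Any 2 conditions that are met mostly by different cells give such a value, so it is descriptive. Barcodes of other lineages also held a low level of Kupffer RNA throughout. The median Kupffer panel was 0.524% of N in Ter119 and 0.374% in saline over all barcodes that met the endothelial condition, mixed ones included, against 0.310% and 0.261% over all barcodes of the other lineages. Median depths were 1531.5 and 3765 UMIs without hemoglobin for the endothelial barcodes and 1968 and 5201 for the other lineages. The shares were not matched for depth, and for Ter119 endothelial barcodes below 2000 UMIs the share was 7.36%. The lineage panels are also not free of Kupffer RNA. The measured monocyte genes stood at 606 CPM in saline Kupffer-only and 165 in endothelial-only barcodes, and at 161 and 544 in Ter119. The median endothelial panel of the other lineages was 0 in both libraries, and 3.92% of them met the endothelial condition in Ter119 and 2.23% in saline.

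**Figure D2:**
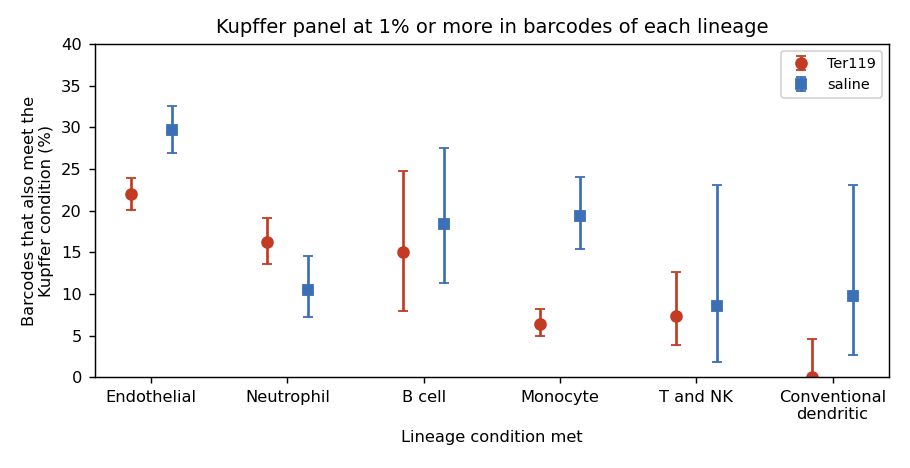
Share of barcodes that also met the Kupffer condition (y axis, percent, exact 95% counting intervals) among barcodes meeting the condition of each lineage (x axis), Ter119 as red circles and saline as blue squares. Endothelial barcodes stand at 21.96% and 29.7%, neutrophil barcodes at 16.2% and 10.5%, and conventional dendritic barcodes at 0 of 79 in Ter119, with an exact upper bound of 4.56% (3.797% by the limit of 3 counts), and at 9.76% in saline.

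The mixed share of endothelial barcodes went with depth, in bins of N chosen after the data were seen. Below 2000 UMIs without hemoglobin, 96 of 1305 Ter119 endothelial barcodes were mixed, or 7.36% (6.00 to 8.91%), and 43 of 233 in saline, or 18.5% (13.7 to 24.0%). From 4000 to 8000, 189 of 263 were mixed in Ter119, or 71.9% (66.0 to 77.2%), and 58 of 326 in saline, or 17.8% (13.8 to 22.4%). At 12000 or more, 80 of 87 saline endothelial barcodes were mixed, or 92.0% (84.1 to 96.7%), and Ter119 had no endothelial barcode of that depth. In each library the deepest well-filled bin was thus almost wholly, or mostly, mixed, and that bin lay above the 90th percentile of endothelial-only barcodes, which was 2470 in Ter119 and 6092 in saline. The share of Kupffer barcodes that were mixed varied less with depth, from 4.83 to 6.77% across the Ter119 bins below 12000 and from 2.15 to 4.56% across the saline bins. The order of the libraries also turned with depth. With at least 2000 UMIs per barcode, 44.8% of endothelial barcodes met the Kupffer condition in Ter119 and 33.0% in saline.

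**Figure D3:**
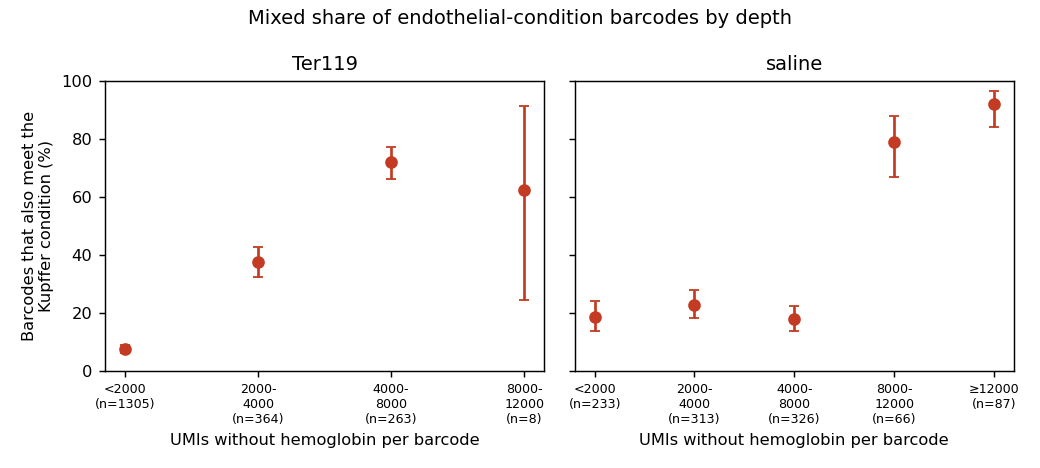
Share of endothelial-condition barcodes that were mixed (y axis, percent, with exact 95% counting intervals) in bins of UMIs without hemoglobin per barcode (x axis, number of barcodes in brackets), Ter119 left and saline right. The share is 7.36% below 2000 and 71.9% from 4000 to 8000 in Ter119, and in saline 17.8% from 4000 to 8000 and 92.0% at 12000 or more.

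By UMIs, the average mixed barcode was not as large as 1 Kupffer-only and 1 endothelial-only barcode together. In Ter119 the mean N was 3796 in mixed, 3548 in Kupffer-only and 1646 in endothelial-only barcodes, so that the mixed mean was 0.731 of the sum of 5194. In saline it was 8003 in mixed, 7983 in Kupffer-only and 3929 in endothelial-only barcodes, 0.672 of the sum of 11912. Against Kupffer-only barcodes alone, the mixed mean was 1.07 times as large in Ter119 and 1.00 times in saline. The spread was wide, with the 25th and 75th percentiles at 2199 and 5151 in Ter119 mixed barcodes, against 2126 and 4709 in Kupffer-only ones, and at 2803 and 12547 in saline mixed barcodes, against 3999 and 11060. The saline mixed barcodes therefore reached both lower and higher than the Kupffer-only ones at their quartiles. N at or above the sum of both means was found in 24.2% of mixed and 17.4% of Kupffer-only barcodes in Ter119, and in 26.6% and 20.5% in saline.

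**Figure D4:**
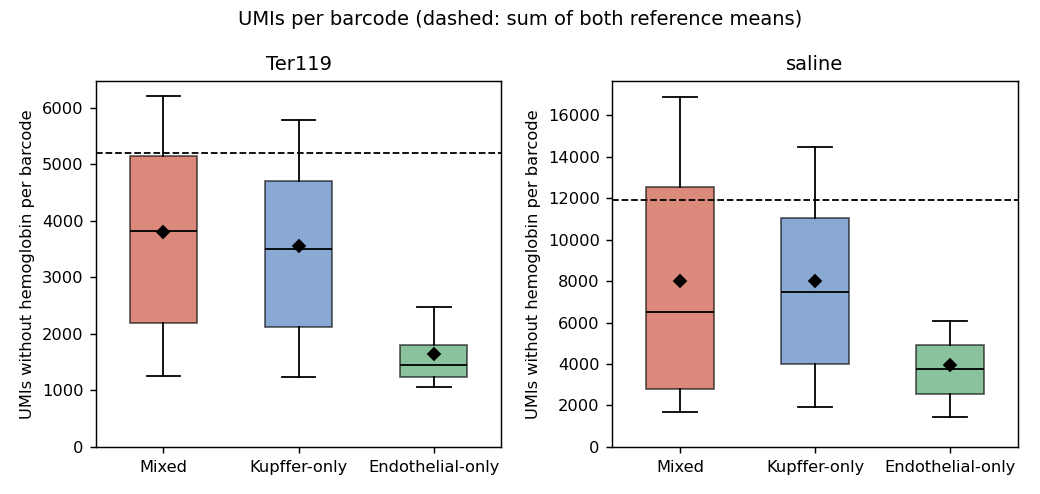
UMIs without hemoglobin per barcode (y axis) for mixed, Kupffer-only and endothelial-only barcodes, Ter119 left and saline right, with boxes from the 25th to the 75th percentile, whiskers from the 10th to the 90th, a line at the median and a diamond at the mean. The dashed line is the sum of both reference means, 5194 in Ter119 and 11912 in saline, and the mixed means lie below it at 3796 and 8003.

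The RNA of the mixed barcodes, taken as a pool, was fitted as a weighted sum of the Kupffer-only and the endothelial-only profile, without the 14 panel genes. The fit gave 75.9% Kupffer RNA and 24.1% endothelial RNA in Ter119, and 75.8% and 24.2% in saline. One barcode of each kind would give 68.3% Kupffer RNA in Ter119 and 67.0% in saline. Markers that the choice of members did not use gave the same picture in UMIs per barcode, although they vary together with the panels and are no independent support. Over 40 held-out endothelial genes, Ter119 mixed barcodes had 28.8 UMIs, Kupffer-only 4.38 and endothelial-only 43.0, a ratio of mixed to endothelial-only of 0.670 (0.657 to 0.684). In saline the values were 68.4 in mixed, 6.19 in Kupffer-only and 133 in endothelial-only barcodes, a ratio of 0.513 (0.505 to 0.521). Over 30 held-out Kupffer genes, Ter119 mixed barcodes had 144 UMIs and Kupffer-only 161, a ratio of 0.898 (0.891 to 0.906), and saline mixed barcodes had 277 and Kupffer-only 355, a ratio of 0.781 (0.776 to 0.787). The endothelial RNA was thus above the Kupffer-only level by many UMIs and below that of a whole endothelial-only barcode in both libraries.

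Mixed barcodes varied in how much endothelial RNA they held. From the held-out genes of each barcode, an endothelial weight was fitted between 0, the Kupffer-only profile, and 1, the endothelial-only profile. It was under 0.25 in 267 Ter119 and 210 saline mixed barcodes, from 0.25 to 0.5 in 115 and 85, from 0.5 to 0.75 in 26 and 9, and at 0.75 or more in 18 and 0. In saline, the mean N was 11082 in the 85 mixed barcodes from 0.25 to 0.5, against 6826 in the 210 below 0.25. In Ter119 those bins had 3870 and 4146 UMIs without hemoglobin, and the 18 barcodes at 0.75 or more had 1255. The weight of 1 barcode of each kind, over the same genes, is 0.275 in Ter119 and 0.303 in saline. It was reached by 125 Ter119 mixed barcodes (29.3%, 25.1 to 33.9%) and 58 saline ones (19.1%, 14.8 to 24.0%). Of Kupffer-only barcodes, 1 in each library had a weight of 0.25 or more. These are ranges of a fitted value, not cell types.

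Gene by gene, almost every tested gene of the mixed barcodes lay near the fitted sum. Genes that reached 20 CPM in any pool were compared, 7260 in Ter119 and 7734 in saline, and 99.4% of them in Ter119 and 99.5% in saline were within 2-fold of the mixture. The weight was fitted on these same genes and the same mixed counts, with the genes of the lists below included. Nearness to the mixture is thus partly set by the fit. The 2-fold rule separates few genes from a pool of Kupffer RNA alone: the Kupffer-only level itself was at least 2-fold from the mixture for 775 Ter119 genes (10.7%) and 834 saline genes (10.8%), a count added after the data were seen. At least 2-fold above the mixture were 0 Ter119 genes (0%) and 20 saline genes (0.259%), and at least 2-fold below it were 40 Ter119 genes (0.551%) and 17 saline genes (0.22%). No gene was above in both libraries, and 2 were below in both. A sum of the 2 profiles in any proportion must lie between the 2 references. At least 2-fold above both references were 0 Ter119 genes (0%) and 1 saline gene (0.0129%), and at least 2-fold below both were 5 Ter119 genes (0.0689%) and 2 saline genes (0.0259%). Of the genes whose references differed by 2-fold or more, 94.0% of 2355 lay between them in Ter119 and 96.6% of 2728 in saline. The counts moved with the references. With the endothelial panel at 0 in Kupffer-only and the Kupffer panel under 0.25% in endothelial-only barcodes, 22 Ter119 and 14 saline genes were 2-fold above the mixture, and 0 and 5 were above both. With at least 2000 UMIs per barcode, 21 Ter119 and 21 saline genes were above the mixture, and 0 and 1 above both.

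**Figure D5:**
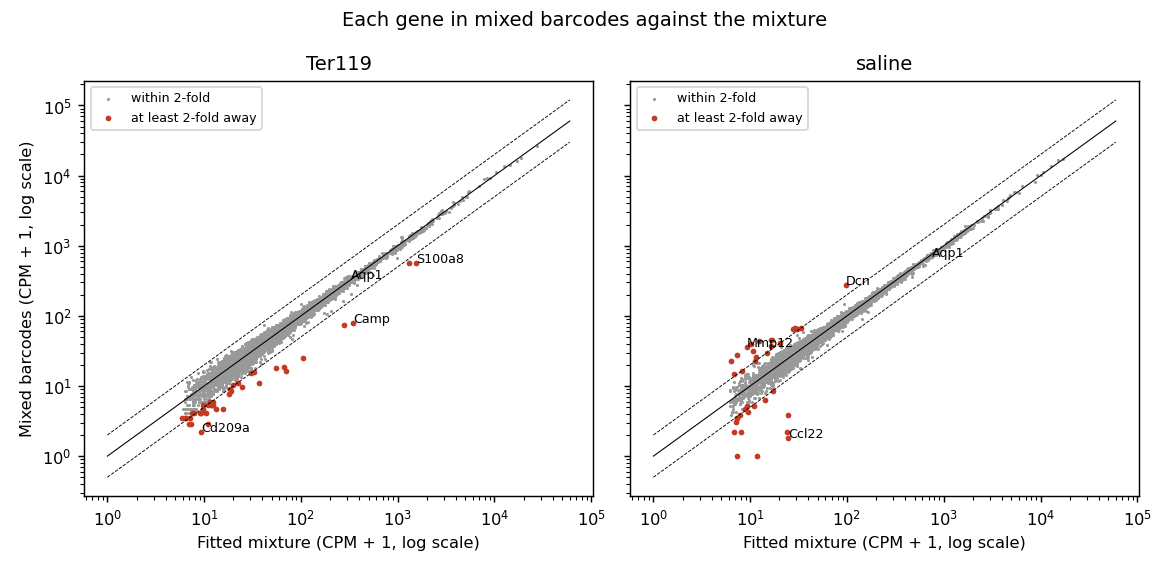
Level of each tested gene in mixed barcodes (y axis, CPM + 1) against its level in the fitted mixture of Kupffer-only and endothelial-only profiles (x axis, CPM + 1), both axes logarithmic, Ter119 left and saline right. The solid line is equality, dashed lines are 2-fold, and red points are genes at least 2-fold away: 0 above and 40 below in Ter119, 20 above and 17 below in saline.

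The held-out Kupffer genes, 29 measured in Ter119 and 30 in saline, lay close to the mixture. These genes, like the held-out endothelial ones, were held out of the choice of members and not of the fit of the weight. None was 2-fold away, but none could be told from Kupffer RNA alone by that rule, since no Kupffer-only level in the list was 2-fold from the mixture either. The median log2 ratio to the mixture was 0.03 in Ter119 and -0.01 in saline, beside 0.009 and -0.003 over all genes tested. C1qa, a subunit of complement C1q, was at 2734 CPM in Ter119 mixed barcodes (2654 to 2815), 3261 in Kupffer-only and 668 in endothelial-only barcodes, against 2638 in the mixture. In saline it was at 4399.8 CPM in mixed, 5717 in Kupffer-only and 585 in endothelial-only barcodes, against 4474 in the mixture. Csf1r, the receptor for macrophage colony-stimulating factor, was at 1.05 times the mixture in Ter119 and 0.998 times in saline. Timd4, a receptor for dying cells on resident macrophages, was at 24.7 CPM in Ter119 mixed barcodes and 452 in saline mixed barcodes, 1.06 and 0.994 times the mixture. Across the list, the ratio to the mixture ran from 0.908 (Lilra5) to 1.17 (Cd163, which takes up hemoglobin with its carrier haptoglobin) in Ter119 and from 0.881 (Slc11a1, a metal ion transporter) to 1.12 (Hmox1, heme oxygenase) in saline.

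The held-out endothelial genes lay close to the mixture as well, and far above the Kupffer-only level. None of 39 measured in either library was 2-fold away, with median log2 ratios of 0.08 in Ter119 and -0.02 in saline. For 38 of the 39 in each library the Kupffer-only level was at least 2-fold from the mixture. The Ter119 median depended on the setting. With at least 2000 UMIs per barcode the medians were 0.50 in Ter119 and -0.02 in saline, and with strict references 0.27 and -0.05. Lyve1, a hyaluronan receptor of sinusoidal and lymphatic endothelium, was at 104 CPM in Ter119 mixed barcodes (89.3 to 121), 2.78 in Kupffer-only and 393 in endothelial-only barcodes, against 96.6 in the mixture. In saline it was at 139 CPM in mixed (125 to 155), 3.43 in Kupffer-only and 575 in endothelial-only barcodes, against 142 in the mixture. Fcgr2b, the inhibitory IgG receptor that clears immune complexes in sinusoidal endothelium, was at 559.6 CPM in Ter119 mixed barcodes against 508 in the mixture, and at 783 against 845 in saline. Stab2, a scavenger receptor for hyaluronan, was at 1.05 times the mixture in Ter119 and 0.989 times in saline. Aqp1, a water channel, was at 0.996 and 0.902 times, and Flt4, a receptor for lymphangiogenic growth factors, at 1.01 and 0.992 times. Ntn4, a secreted netrin, had the highest ratio of the list in both libraries, 1.41 in Ter119 and 1.262 in saline. The lowest were Fam167b in Ter119 at 0.783 and Sox17, an endothelial transcription factor, in saline at 0.742.

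Each gene that differs strongly between the references gives its own estimate of the endothelial share, a reading added after the data were seen. Over 327 Ter119 genes at least 4-fold higher in endothelial-only barcodes and at 100 CPM or more, the median endothelial share was 25.7%, with the 25th and 75th percentiles at 22.9 and 28.5%. Over 94 genes at least 4-fold higher in Kupffer-only barcodes it was 20.4%, from 15.2 to 24.4%. In saline, 415 endothelial-higher genes gave 24.2%, from 21.8 to 26.5%, and 283 Kupffer-higher genes 23.4%, from 20.1 to 27.4%. The medians of both kinds of gene differed by 5.29 percentage points in Ter119 and 0.779 in saline, and single genes ranged more widely. The 5th and 95th percentiles were 12.8 and 33.1% for endothelial-higher and 6.89 and 29.8% for Kupffer-higher genes in Ter119, and 16.9 and 30.6%, and 14.2 and 33.7%, in saline.

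Genes that both cell types use lay near the mixture. Of 14 shared scavenger genes, the Kupffer-only level was 2-fold from the mixture for 6 in each library, so the others could not be told from Kupffer RNA alone by that rule. None of the 14 was 2-fold away from the mixture in either library, with median log2 ratios of 0.09 in Ter119 and 0.005 in saline. Mrc1, the mannose receptor, was at 1000.5 CPM in Ter119 mixed, 730.1 in Kupffer-only and 1440.1 in endothelial-only barcodes, against 901 in the mixture. In saline it was at 1409 CPM in mixed, 1067 in Kupffer-only and 2319 in endothelial-only barcodes, against 1370.3 in the mixture. Cdh5, the cadherin of endothelial junctions, had 109 CPM in Ter119 Kupffer-only and 680.0 CPM in saline Kupffer-only barcodes, and its level in mixed barcodes, 252 in Ter119 and 781 in saline, was 1.06 and 1.00 times the mixture. Of the 9 genes described for KC2 that were not in the panels, 0 were 2-fold away in either library, while the Kupffer-only level was 2-fold from the mixture for 7 in Ter119 and 6 in saline. Of the 9, Esam, a junction protein, was at 130.5 CPM in Ter119 mixed barcodes and 125 in saline mixed barcodes, 1.24 and 0.932 times the mixture. Cd36, a fatty acid and scavenger receptor, was at 1.07 and 1.03 times.

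Lists of signalling and cell state genes had no member 2-fold away from the mixture in either library, which is near the background, since at most 0.551% of all genes were away in 1 direction. The lists were Notch genes (8 measured in Ter119, 9 in saline), BMP and TGF-beta genes (14 and 14), adhesion and junction genes (17 and 17), immediate early and heat shock genes (15 and 16), inflammatory cytokine genes (9 and 11), interferon-stimulated genes (16 and 16), cell cycle genes (13 and 13) and MHC class II genes (6 and 6). The Kupffer-only level was 2-fold from the mixture for 4 Notch genes in Ter119 and 5 in saline, and for 3 and 4 BMP and TGF-beta genes. It was so for 7 and 6 adhesion genes, 2 and 1 inflammatory cytokine genes, and 0 genes of the other 4 lists in either library. By that rule, genes of those 4 lists could not be told from Kupffer RNA alone. Hes1, a Notch target, was at 0.927 times the mixture in Ter119 and 1.06 times in saline. Bmp6, the signal by which sinusoidal endothelium sets hepcidin, was at 1.40 and 1.06 times. The cell cycle list had median log2 ratios of -0.30 in Ter119 and -0.23 in saline, and Mki67, a marker of dividing cells, was at 0.794 and 0.587 times the mixture. With few mixed barcodes the direction turned, to a list median of 0.38 in Ter119 with stricter membership (25 mixed barcodes) and of 0.67 in saline with at most 5% mitochondrial UMIs (20), while in saline stricter membership (26) gave -0.87. The MHC class II list had medians of -0.63 in Ter119 and -0.15 in saline. H2-Ab1, an antigen-presenting chain, was at 164 CPM in Ter119 mixed, 244 in Kupffer-only and 361 in endothelial-only barcodes, so that it lay below both references.

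Genes outside the lists that stood furthest above or below both references in both libraries did so by small margins. The 10 furthest above were at 1.09 to 1.19 times the higher reference in the library where they stood less far out, among them Man2a2, a mannosidase of glycan processing, at 1.19 in Ter119 and 1.25 in saline. The 10 furthest below were at 0.841 to 0.918 times the lower reference, among them Ndufb3 and Ndufb6 of respiratory complex I, the spliceosome genes Snrpd2 and Snrpd3, and Ubb, a ubiquitin gene. Ndufb6 was at 0.813 times the lower reference in Ter119 and 0.841 times in saline.

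The exceptions to the sum, picked for their values, included stellate and fibroblast genes in saline and neutrophil and monocyte genes in Ter119. In saline, 6 of 9 measured stellate and fibroblast genes were at least 2-fold above the mixture, and the list's median log2 ratio was 1.29. Dcn, the proteoglycan decorin, was at 270.5 CPM in mixed (250.2 to 292), 29.2 in Kupffer-only and 304 in endothelial-only barcodes, against 95.8 in the mixture. Lrat, which stores retinol as esters in stellate cells, was at 2.86 times the mixture, Colec11 at 2.78 and Reln at 3.15 times. These UMIs sat in few barcodes: 429 of 658 Dcn UMIs came from 3 barcodes. A count added after the data were seen found 7 of 304 saline mixed barcodes (2.30%) with at least 0.2% stellate and fibroblast RNA. They also had 3 or more genes of the list detected, and they held 69.1% of the list's UMIs in the mixed pool. Because the list chose these barcodes, that share and the list medians without them are descriptive. In Ter119, 8 of 426 mixed barcodes (1.88%) were of this kind, and 1 of 9 measured list genes was 2-fold away, below the mixture, with a list median of -0.52. Among reference barcodes, they made up 0.1502% of Kupffer-only and 6.27% of endothelial-only barcodes in Ter119, and 0.0990% and 3.03% in saline. Without all such barcodes, 0 Ter119 genes and 4 saline genes were 2-fold above the mixture. Those 4 were Mmp12, Retnlg, Adam19 and Gm38340, and the stellate list median was 0.38 in Ter119, turned to above the mixture, and 0.54 in saline. Over all saline mixed barcodes, 49 of 60 Retnlg UMIs came from 3 barcodes. The 38 Adam19 UMIs were spread over 29 barcodes, with 8 in the top 3.

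Mmp12, a macrophage elastase, was the saline gene above both references, at 35.3 CPM in mixed, 10.5 in Kupffer-only and 0.857 in endothelial-only barcodes. Of its 86 UMIs, 81 came from 1 barcode. Without that barcode it would rest on 5 UMIs.

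Of the 40 Ter119 genes below the mixture, 2 were among the 6 measured genes of the neutrophil list and 4 among the 6 of the monocyte list. Others were of neither list, such as Hsd11b1, Il13ra2 and Ghr. The neutrophil genes named next stood high in endothelial-only barcodes. Camp, an antimicrobial peptide of neutrophil granules, was at 78.5 CPM in mixed, 114 in Kupffer-only and 1083 in endothelial-only barcodes, against 347 in the mixture, and 96 of its 127 UMIs in the mixed pool came from 3 barcodes. S100a8, a calcium-binding protein of neutrophils, was at 570.1 CPM in mixed, 667 in Kupffer-only and 4291 in endothelial-only barcodes, with 429 of 922 UMIs in 3 mixed barcodes. Lcn2, a neutrophil iron-scavenging protein, was at 24.1 CPM in Ter119 mixed, 43.1 in Kupffer-only and 297 in endothelial-only barcodes, and was also below the mixture in saline. Beside this, barcodes of another immune lineage made up 1.41% of mixed, 2.59% of Kupffer-only and 5.41% of endothelial-only barcodes in Ter119. Without them the median log2 ratio of the neutrophil list was 0.04, against -0.81 with them, and 31 genes were 2-fold below the mixture, against 40. The neutrophil barcodes among them were found with that same list, so the change in its median is descriptive. The list median was -1.84 with strict references and -0.11 with at most 5% mitochondrial UMIs. The 5 Ter119 genes below both references were Cxcr4, Cd177, Napsa, Cd209a and Alas1, with 2 to 16 UMIs in the mixed pool. The 2 saline ones were Slpi and Ccl17, with 7 and 3 UMIs. Ccl17 and Ccl22, chemokines of dendritic cells, were at 87.0 and 94.7 CPM in saline endothelial-only barcodes.

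At equal depth, mixed barcodes lay between both references in the number of genes. In 1000 UMIs, the expected number of genes had a median of 630 in Ter119 mixed, 599 in Kupffer-only and 699 in endothelial-only barcodes, and of 686, 665 and 721 in these pools in saline. The mitochondrial share had a median of 5.97% in Ter119 mixed, 5.19% in Kupffer-only and 5.85% in endothelial-only barcodes, and of 8.85%, 7.14% and 8.79% in saline. Hemoglobin, which N leaves out, made up a median of 1.31% of UMIs in Ter119 mixed, 1.47% in Kupffer-only and 0.858% in endothelial-only barcodes, and 0% in all 3 saline pools. The part of these shares in the results above was not tested.

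Between the libraries, the Kupffer genes named here had like ratios in mixed and in Kupffer-only barcodes. At least 2-fold higher in Ter119 than in saline mixed barcodes were 226 of 6990 genes (3.23%), and at least 2-fold lower were 534 (7.64%). In Kupffer-only barcodes the counts were 260 (4.05%) and 513 (7.98%) of 6426 genes. Hmox1, which breaks down heme, was at 5930.5 CPM in Ter119 mixed and 862 CPM in saline mixed barcodes, 6.88 times as high (6.56 to 7.21), beside 6.86 times in Kupffer-only and 12.6 times in endothelial-only barcodes. Spic, the transcription factor of red pulp and iron-recycling macrophages, was 4.17 times as high in mixed and 3.86 times in Kupffer-only barcodes. Timd4 was at 0.0547 of the saline level in mixed (0.0389 to 0.0750) and 0.0495 in Kupffer-only barcodes, and Cd163 at 0.0467 and 0.0389. H2-Ab1 was at 0.149 of the saline level in mixed barcodes, 0.158 in Kupffer-only and 1.02 in endothelial-only barcodes. The mouse and its library cannot be told apart from Ter119 in any of these ratios.

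For the endothelial genes named here, the ratio in mixed barcodes lay nearer to that in endothelial-only barcodes. Aqp1 was at 0.480 of the saline level in mixed barcodes (0.434 to 0.529), 0.432 in endothelial-only and 0.811 in Kupffer-only barcodes. Flt4 was at 0.588 in mixed, 0.576 in endothelial-only and 1.03 in Kupffer-only barcodes. Fabp4, a fatty acid carrier, was 6.24 times as high in Ter119 mixed barcodes (5.52 to 7.07), 4.93 times in endothelial-only and 15.6 times in Kupffer-only barcodes, and 5.41 times in the mixtures. Fabp5, a related carrier, and Cd63, a lysosomal membrane protein, had far smaller ratios in mixed than in Kupffer-only barcodes. Fabp5 was 17.1 times as high in mixed and 92.3 times in Kupffer-only barcodes, and 14.2 times in the mixtures. Cd63 was 23.7 times as high in mixed and 92.5 times in Kupffer-only barcodes, and 53.1 times in the mixtures. Both stood low in saline Kupffer-only barcodes, at 13.2 CPM for Fabp5 and 6.93 CPM for Cd63, against 59.6 and 21.8 CPM in saline mixed barcodes. Cd63 was 1 of the 20 saline genes above the mixture, on 53 UMIs in 26 mixed barcodes, with 25 of the UMIs in 3 barcodes. It was not among the 4 saline genes above the mixture once barcodes with stellate and fibroblast RNA were left out.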

How the data were processed

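For each library the authors deposited a matrix of raw UMI counts. Per the file headers, Cell Ranger 6.0.2 wrote it. The submitters' processing notes name GRCm38.p6, DESeq2 1.26.0, Seurat 3.2.3, Scanpy 1.7.0 and another Cell Ranger version, 4.0.0. The way in which hashtags assigned cells to mice is not given in those sources. Hashtag counts were not used here, so droplets with cells of both mice could not be looked for. Both matrices list 26078 genes, and no barcode has under 500 UMIs. Gene positions were looked up by identifier in GENCODE vM21, which is on GRCm38.

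No doublet caller was run and no doublet was removed, since barcodes with both profiles are the subject. The weight of the 2 reference profiles was found by Poisson maximum likelihood on summed counts, over genes with at least 20 CPM in 1 pool, without the 14 panel and 4 hemoglobin genes, and per barcode over the held-out lists in steps of 0.01. A gene counted as away from the mixture at 2-fold, a rule of size with no test. Shares have exact Clopper-Pearson intervals and levels exact Poisson intervals at 95%, and ratios exact conditional binomial ones. Beside a share of 0 stands the upper limit from 3 counts. The intervals leave out PCR and differences between cells. The fit was tested on simulated data. Computation used pandas 2.3.3, scipy 1.17.1 and numpy 2.4.6 in python 3.11.15, and figures matplotlib 3.10.9.

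Named genes are those of the held-out and shared scavenger lists, up to 4 genes of each other list furthest from the mixture, and outside the lists the 10 highest above and 10 lowest below both references, at 50 CPM and a UMI in 10% of barcodes. Other genes, among them Mmp12, Camp, S100a8, Lrat, Adam19, Gm38340, Ccl17, Ccl22, Slpi, Cxcr4, Cd177, Napsa, Cd209a, Alas1, Hsd11b1, Il13ra2 and Ghr, were picked after their values were seen. The members, lists and thresholds were chosen with earlier results of these data known. Alternatives varied the reference barcodes, the cell filters, membership, other lineages, shared barcodes, hemoglobin, the weight, the CPM minimum and the fold.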

Additional observations from a re-analysis of the deposited data

How the results depend on the processing

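Shares were called moved beyond their counting interval, and ratios, fitted shares, counts and list medians beyond 1.5 times. For ratios, fitted shares and list medians that criterion replaced counting intervals after the values were seen. The intervals had marked many more of them as moved, so a value called not moved may differ by more than counting error. An example is the Ter119 median of the endothelial held-out list, 0.08 in the report and 0.50 with at least 2000 UMIs. Under every alternative run, the mean N over the sum and the fitted Kupffer share stayed within 1.5 times in both libraries. With stricter membership (0.4% endothelial, 2% Kupffer), the mean N over the sum went from 0.672 to 0.955 in saline and from 0.731 to 0.645 in Ter119. The held-out ratios also stayed within 1.5 times except in saline with stricter membership. There they were 0.851 for endothelial and 1.19 for Kupffer genes, on 26 mixed barcodes. Of 220 such alternatives, 75 moved and 145 did not, and of 110 for gene lists 10 moved. The 110 covered only the endothelial held-out, Kupffer held-out, platelet, neutrophil and cell cycle lists. Medians of the other lists, MHC class II among them, are not part of these counts. The 10 that moved are median log2 ratios. For the neutrophil list in Ter119, -0.81 became -1.84 with strict references, -0.11 with at most 5% mitochondrial UMIs, 0.04 without other lineages and -1.64 at 50 CPM, and in saline 0.24 became -1.46 with at most 5% mitochondrial UMIs. For the cell cycle list, -0.30 became 0.38 in Ter119 with stricter membership, and in saline -0.23 became 0.67 with at most 5% mitochondrial UMIs and -0.87 with stricter membership. For the platelet list, -0.26 became 0.47 in Ter119 with stricter membership and 0.26 became -0.38 in saline with at most 5% mitochondrial UMIs. The causes were not tested.

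The mixed share was 3.78% in Ter119 with at least 2000 UMIs, 3.48% without other lineages and 2.54% with hemoglobin kept in the total. With at most 5% mitochondrial UMIs it was 1.93% in Ter119 and 0.962% in saline, with stricter membership 0.181% and 0.225%, and with members below 0.25% endothelial left out 2.49% and 1.97%. The share of endothelial barcodes that met the Kupffer condition was 44.8% in Ter119 and 33.0% in saline with at least 2000 UMIs, 1.58% and 3.04% with stricter membership, and 18.8% and 24.1% without members below 0.25%.

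Genes 2-fold above the mixture in Ter119, 0 in the report, were 22 with strict references, 1 with complement references, 21 with at least 2000 UMIs, 58 with at most 5% mitochondrial UMIs, 1124 with stricter membership (25 mixed barcodes), 4 with all UMIs, 1068 with no CPM minimum, 48 at 1.5-fold and 3 without members below 0.25%. In saline, 20 became 359 with at most 5% mitochondrial UMIs (20 mixed barcodes), 116 with stricter membership, 5 at 50 CPM, 1165 with no minimum, 52 at 1.5-fold, 3 without members below 0.25% and 4 without stellate barcodes. Genes below the mixture in Ter119, 40 in the report, were 109 with strict references, 21 with complement references, 146 with at least 2000 UMIs, 155 with at most 5% mitochondrial UMIs, 629 with stricter membership, 13 at 50 CPM, 470 with no minimum and 165 at 1.5-fold. In saline, 17 became 28 with strict references, 609 with at most 5% mitochondrial UMIs, 403 with stricter membership, 4 at 50 CPM, 425 with no minimum and 78 at 1.5-fold.

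Genes above both references in Ter119, 0 in the report, were 10 with at most 5% mitochondrial UMIs, 432 with stricter membership, 510 with no minimum and 3 at 1.5-fold. In saline, 1 became 5 with strict references, 130 with at most 5% mitochondrial UMIs, 26 with stricter membership, 0 at 50 CPM, 553 with no minimum and 7 at 1.5-fold. Genes below both in Ter119, 5 in the report, were 9 with strict references, 1 with complement references, 15 with at least 2000 UMIs, 50 with at most 5% mitochondrial UMIs, 375 with stricter membership, 2 without other lineages, 0 at 50 CPM, 171 with no minimum, 30 at 1.5-fold and 14 without members below 0.25%. In saline, 2 became 1 with at least 2000 UMIs, without other lineages, without members below 0.25% or without stellate barcodes, and 272 with at most 5% mitochondrial UMIs, 197 with stricter membership, 171 with no minimum and 9 at 1.5-fold.

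The alternatives on members below 0.25% and on stellate barcodes were added after the data were seen. Few mixed barcodes and few UMIs per gene underlie the largest counts. No paired analysis was possible because each group is 1 mouse, and no result comes from a test.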
